A study of Mus musculus with 12 samples.

Results

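The effect of pregnenolone carbonitrile (PCN) on liver RNA was measured against its vehicle in C57BL/6N mice kept on a high-fat diet. The diet began at 6 weeks of age and lasted 15 weeks. PCN was then given into the peritoneum at 50 mg/kg on 4 days, 1 dose a day, and the control mice received 30% DMSO in corn oil in its place. The PCN livers were replicates 5, 11 and 27 and the vehicle livers replicates 15, 23 and 55. Livers of the same strain without any injection, from the high-fat diet (replicates 4, 30 and 38) and from regular chow (8, 17 and 19), give the background levels. Sex and pooling of animals are not given in the labels, so p-values measure the spread between these 3 samples a group. Thus 6 of the 12 libraries enter the comparison.

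The genes described are those in the authors' deposited table of PCN against vehicle, which lists only genes with a DESeq2 adjusted p below 0.05. It held 442 of 25879 tested genes (1.71%). With PCN, 276 of them were higher (1.07% of those tested) and 166 lower (0.641%). A listed gene has thus passed the authors' test, and its place in the list is that test and no further support. Genes missing from the table were not analysed here unless another of the deposited tables gave their PCN counts. Such tables list only genes called between PCN livers and uninjected livers, so unlisted genes with PCN values are a selected set.

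PCN is a synthetic steroid that binds the rodent pregnane X receptor (PXR). This nuclear receptor is held ready in hepatocytes, pairs with the retinoid X receptor when a foreign compound or bile acid binds it, and switches on genes that oxidise, conjugate and export such compounds. Oxidation is mostly the work of cytochrome P450 enzymes, conjugation that of transferases that add glutathione, glucuronic acid or sulfate, and export that of membrane pumps. PXR is also known to touch lipid, glucose and bile acid metabolism in the liver.

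Cyp3a11, the classical PXR target of mouse liver, and its neighbours were among the genes with the largest ratios. Because these P450 genes lie side by side and were higher together, the same stretch upstream of 6 listed Cyp3a genes is shown, taken from RefSeq promoters (GRCm38.p6) and written 5′ to 3′ on the strand of the gene. Capitals mark a nuclear receptor half-site on either strand. The letters searched were those of the consensus (AGGTCA), and in addition the variant with a changed middle (AGTTCA). The variant that differs from the consensus at its first letter (GGGTCA) was searched as well. The search also took in the form that carries both of these changes (GGTTCA).
Cyp3a11: tAGGTCAagttgggctgtggaTGAACTata
Cyp3a44: gAGGTCAacatagggtatgaatgagcttat
Cyp3a41b: gaggccaacatagggtatgaaTGAACTtat
Cyp3a16: gaagtcaacatagggtatgaatgagcttat
Cyp3a25: aAGGTCAgagtaagaaaatgcaTGACCTta
Cyp3a59: aAGGTCAgagtaaaaaaatgcaTGACCTta
All 6 lie on chromosome 5. The Cyp3a11 stretch is chr5:145879988-145880017 on the minus strand and begins 163 bases before the annotated start. The Cyp3a44 stretch is chr5:145805996-145806025, the Cyp3a41b stretch chr5:145584852-145584881 and the Cyp3a16 stretch chr5:145469849-145469878, all on the minus strand. The Cyp3a25 stretch is chr5:146009766-146009795 on the minus strand, and the Cyp3a59 stretch chr5:146079080-146079109 on the plus strand.

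The capitals show how the family differs within 30 bases. Cyp3a11, Cyp3a25 and Cyp3a59 held 2 half-sites that face each other 14 or 15 bases apart. Cyp3a44 held the first of the pair, Cyp3a41b the second and Cyp3a16 neither. The facing pair stood in the promoter window (250 bases before to 50 after a start) of 3 of the 212 higher genes with a RefSeq promoter (1.42%), those 3, and of 0.0777% of all 27025 promoter genes. That pattern was read off these sequences, so its count is a description. The spacings best known for PXR, direct repeats with 3 or 4 bases between half-sites (DR3, DR4) and the everted repeat with 6 (ER6), were in 0 of the 212 and in 0.174% of all promoter genes. A single half-site was in 52.8% of the higher genes, in 51.4% of the 109 lower genes with a promoter and in 46.9% of all. These windows are short, and no match says only that the letters are not in them.

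Read counts divided by the authors' size factors (normalized counts) are given for each library in the order of the replicates above. Cyp3a11 (chr5:145854426-145879964) stood at 5854, 21894 and 3899 in the vehicle livers and at 910751, 357863 and 756889 in the PCN livers. The lowest PCN library was thus far above the highest vehicle library, and the ratio of the group means was 64.0. Vehicle replicate 23 was the high control, and without it the ratio was 138. Uninjected high-fat-diet livers had 24076, 11322 and 30099 and chow livers a mean of 75462, so PCN livers also lay above every uninjected library. Cyp3a11 alone made up 4.43%, 1.74% and 3.69% of the estimated reads of the PCN livers, against 0.019% to 0.107% in the vehicle livers. It carried 24.7% to 34.4% of all normalized counts of the 276 higher genes under PCN. Fold values in this text are ratios of group means, which can differ widely from the authors' deposited DESeq2 log2 changes. Those were 1.72 for Cyp3a11, 3.17 for Cyp2c55 and 2.71 for Gstm3, each far below the log2 of its ratio of means. The reason for this gap was not tested.

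**Figure D1:**
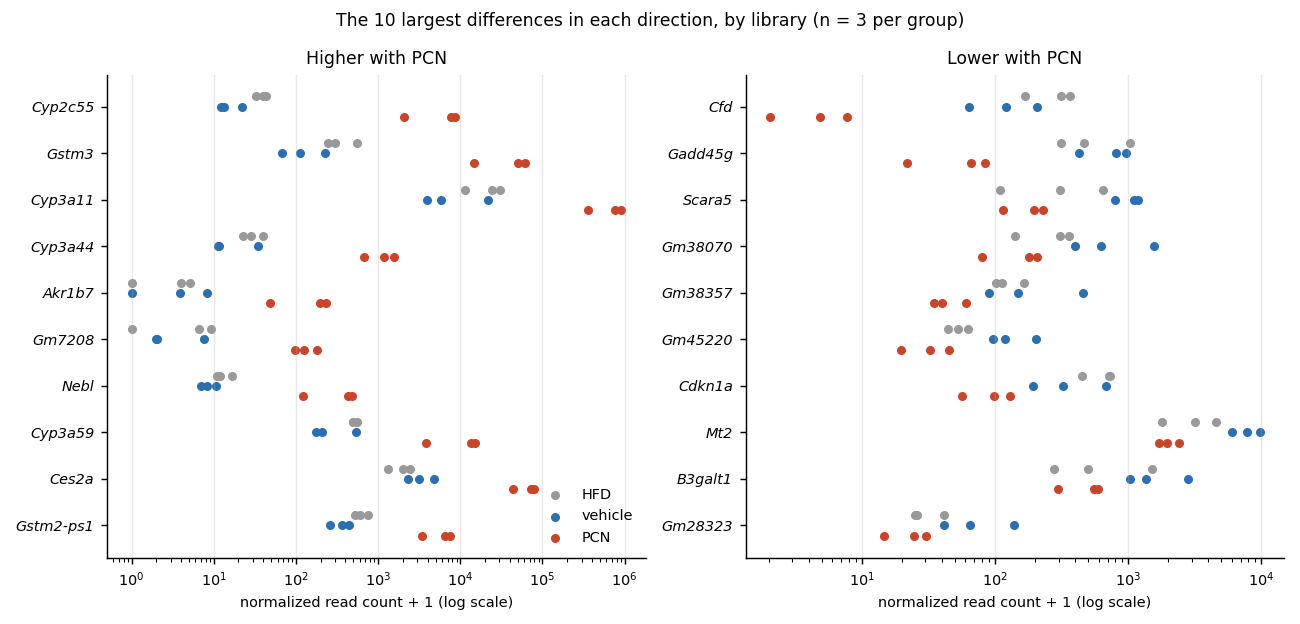
Normalized read count plus 1 (log axis) of the 10 listed genes with the largest ratio in each direction among those with a mean count of at least 50 and no overlap between the groups. Each point is 1 library (grey, uninjected high-fat diet; blue, vehicle; red, PCN; n = 3 each). All red points lie to the right of the blue points in the left panel and to their left in the right panel.

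Both groups were also separate in the other Cyp3a genes, at lower levels. Cyp3a44 had 10.5, 33.1 and 10.3 normalized counts with vehicle and 1580, 673 and 1175 with PCN, a ratio of 63.5 that became 110 without vehicle replicate 23. Cyp3a59 went from 209, 539 and 177 to 13402, 3881 and 15077, 35.0-fold, or 55.9-fold without vehicle replicate 23. Cyp3a25 differed least, with 9355, 12895 and 5489 against 33502, 17328 and 33870 (3.05-fold). Cyp3a16 and Cyp3a41b were close to absent in the vehicle livers. Cyp3a16 had 3 reads in all with vehicle and 275 with PCN, a pooled ratio of 82.3 with a 95% exact counting interval from 27.9 to 402. Cyp3a41b had 1 read with vehicle and 182 with PCN, a ratio of 163 with an interval from 28.96 to 6489. Such intervals cover counting error only. These paralogs are similar in sequence, so reads of the abundant Cyp3a11 could be counted to its neighbours, and their separate values are uncertain to that extent.

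Cyp2c55, a P450 of the Cyp2c family that is scarce in untreated liver, had the largest ratio of means of the 442. Its normalized counts were 12.4, 21.1 and 11.4 with vehicle and 8608, 2095 and 7693 with PCN, 410-fold. In chow livers its mean was 77.8, so it also lay below chow in the vehicle group. Cyp2c29 had 48357, 36334 and 27078 against 179399, 41203 and 169996 (3.49-fold), and its groups overlapped because PCN replicate 11 lay within the vehicle range. Cyp2a5, which oxidises coumarin and nicotine, was 2.95-fold higher and Cyp2a4, a steroid hydroxylase, 2.68-fold. The scarce Cyp2g1 was 4.70-fold higher, or 3.09-fold without PCN replicate 11. In all, 11 of the 47 measured Cyp2 and Cyp3 genes were higher, and Cyp2j9 (3.03-fold) and Cyp2d40 (1.78-fold) were lower. Of these 2 lower genes a DESeq2 refit called 1 in each case but that without vehicle replicate 23. Cyp2b10, the usual target of the related receptor CAR, was not listed, and its PCN counts were not analysed here.

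Esterases and reductases that act beside the P450 enzymes were higher as well. Ces2a, a carboxylesterase, had 4831, 3182 and 2280 normalized counts with vehicle and 79719, 43746 and 72806 with PCN (19.1-fold). Every PCN library exceeded every vehicle library several times over. Ces2c was 3.45-fold and Ces2g 2.002-fold higher, and Ces1c, Ces1d and Ces1g 1.81- to 1.91-fold. Ephx1, the microsomal epoxide hydrolase, was 2.25-fold higher by its means, with PCN replicate 11 (7197) below vehicle replicate 23 (8178). With these, 7 of 22 measured genes of the esterase list were higher. Its lower member, Ces4a, had 52 reads with vehicle and 7 with PCN, a pooled ratio of 8.27 with an interval from 3.74 to 21.6. Its ratio of means, 10.6, was 16.3 without PCN replicate 5, and a DESeq2 refit called it only without vehicle replicate 23. A DESeq2 refit called 3 of the 7 without vehicle replicate 55, PCN replicate 5 or PCN replicate 27.

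Among 49 aldehyde dehydrogenases and other oxidoreductases, 6 were higher and 0 lower. Akr1b7, an aldose reductase relative that is also a known PXR target, had 2.87, 0 and 7.23 normalized counts with vehicle and 193, 47.7 and 232 with PCN. It rested on 10 vehicle reads, so its ratio of means, 46.8, was 110 without vehicle replicate 55. The pooled ratio was 53.8 with an interval from 29.04 to 113. The abundant retinal and aldehyde dehydrogenases Aldh1a1 and Aldh1a7 were 2.08- and 1.99-fold higher, and the steroid reductase Akr1c14 1.95-fold. Aldh1a7 had 4270, 3613 and 3899 against 8910, 6798 and 7780, and its groups did not overlap. The refit with DESeq2 called 1 of the 6 without PCN replicate 5, and 2 without PCN replicate 27 or vehicle replicate 55.

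Conjugating enzymes came next. Glutathione transferases join glutathione to reactive compounds, and 8 of the 24 measured were higher and 0 lower. Gstm3 (chr3:107963696-107969283) had 110, 228 and 66.1 normalized counts with vehicle and 50907, 14702 and 61462 with PCN (315-fold, 481-fold without vehicle replicate 23). Gstm2 had 517, 467 and 384 against 9412, 1982 and 10202 (15.8-fold). Gstm1 was already abundant with vehicle, at 6408, 7789 and 4486, and reached 55856, 36918 and 60754 (8.22-fold). Both Gstm2 and Gstm1 were called lower with vehicle than in uninjected high-fat-diet livers (authors' DESeq2 log2 -1.2 and -0.8). Against uninjected livers PCN was still called higher (1.33 and 1.94). Gstm4 was 3.05-fold, Gstm6 3.01-fold and Gstm5 2.04-fold higher. These 6 genes fill 149.1 kb of chromosome 3, where 10 genes of the complete table lie. The processed pseudogenes Gstm2-ps1 (16.3-fold) and Gm8834 (14.7-fold) were higher too, and reads of such intron-free copies cannot be told apart from reads of the genes they came from. Outside the cluster Gstp1 was 1.91-fold and Gsta3 1.80-fold higher.

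Glucuronosyltransferases and sulfotransferases attach glucuronic acid and sulfate, and 10 of 41 measured genes of that list, cofactor enzymes included, were higher and 0 lower. Ugt1a9 had 63.1, 219 and 85.7 normalized counts with vehicle and 1438, 1192 and 1927 with PCN (12.4-fold, 20.4-fold without vehicle replicate 23). The authors called Ugt1a9 and Ugt1a5 lower with vehicle than in uninjected high-fat-diet livers (DESeq2 log2 -1.69 and -0.84). For Ugt1a9 their log2 of PCN was 0.97 against uninjected livers, beside 2.73 against vehicle. Ugt1a5 was 3.49-fold higher, and Ugt1a1, the bilirubin transferase, had 7001, 7472 and 4197 against 16350, 10654 and 13207 (2.15-fold). The Ugt1a genes share their last exons, so their reads can be divided only at the first exon. Ugdh, which makes the glucuronic acid donor, was 2.80-fold higher and Ugt2b35 2.75-fold. Papss2, which makes the sulfate donor, was 1.82-fold higher, and Sult2a7 3.89-fold. Sult3a1 rested on 18 vehicle reads and 256 PCN reads, with a pooled ratio of 12.8 and an interval from 7.92 to 21.9. Its ratio of means was 11.9, and 7.13 without PCN replicate 27. Refitted with DESeq2, the list kept calls for 6 of the 10 without PCN replicate 5.

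Of 25 transporters, 3 were higher and 1 lower. Slco1a4, the organic anion uptake carrier Oatp2 that PCN is known to raise, had 2104, 2923 and 933 normalized counts with vehicle and 15305, 8709 and 11899 with PCN (6.02-fold). Abcb1a, a multidrug efflux pump, was 3.29-fold higher, and Abcc3, which exports conjugates to the blood, 1.77-fold. Atp8b1, a phospholipid flippase of the bile canaliculus, was lower, at 1374, 1445 and 1397 against 1011, 1015 and 1004 (1.39-fold). Its groups did not overlap, but a DESeq2 refit called it in 0 of the 6 cases in which 1 library was left out. The refit called 1 of the 3 higher genes without PCN replicate 5.

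P450 enzymes need heme and electrons, and the genes of that supply did not move in 1 direction. Cytochrome b5 (Cyb5a, 1.88-fold; Cyb5b, 1.59-fold), its reductase Cyb5r3 (1.57-fold) and the heme-binding Pgrmc1 (1.68-fold) were higher, 4 of 24 in all. Alas1, the rate-limiting enzyme of heme synthesis, was lower, with 37600, 41373 and 37401 normalized counts in the vehicle livers and 26080, 12168 and 18604 in the PCN livers (2.05-fold). Its groups did not overlap. The refit with DESeq2 called 0 of the 4 higher genes without PCN replicate 5 or vehicle replicate 55, 1 without vehicle replicate 15 and 2 without PCN replicate 27, and it called Alas1 only without PCN replicate 5 or 11. The reductase Por was not listed, and its values were 19244 ± 3234 with vehicle and 20496 ± 4284 with PCN (SD, n = 3), against 10951 ± 2266 without injection. Nr1i3, the gene of CAR, had 5476 ± 834 with vehicle and 5801 ± 823 with PCN and was not listed. Nr1i2, which encodes PXR, was not listed either, and its PCN counts were not analysed here. The authors' DESeq2 test listed none of 37 xenobiotic and metabolic receptor genes. With 1.71% of all tested genes listed, that count cannot be set apart from the general share.

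The NRF2 pathway, which answers oxidants, and the pentose phosphate pathway, which makes NADPH, had 7 of 33 genes higher and 0 lower, all under 2-fold. Gsr, glutathione reductase, was 1.92-fold higher, Tkt, transketolase, 1.90-fold, Entpd5 1.87-fold and Pir, an NRF2 target, 1.85-fold. Pir had 241, 260 and 211 against 497, 332 and 484. Refitted with DESeq2, the list kept calls for 1 of the 7 without vehicle replicate 55 or PCN replicate 27, and 2 without vehicle replicate 15 or PCN replicate 5. The core of the antioxidant response element (TGACNNNGC, searched on both strands) was in 19.8% of the 212 promoters of higher genes, 21.1% of the 109 of lower genes and 13.99% of all promoter genes. Its letters can overlap a half-site read on the other strand. A pair of matches is shown with the motif in capitals, because the same 9 letters, on opposite strands, stand before Pir, which was higher, and Mt2, which was lower.
Pir: gcatagagagGCTGAGTCActcccccaaa
Mt2: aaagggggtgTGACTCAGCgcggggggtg
The Pir stretch is chrX:164269207-164269235 and the Mt2 stretch chr8:94172529-94172557, both on the plus strand of GRCm38.p6.

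**Figure D2:**
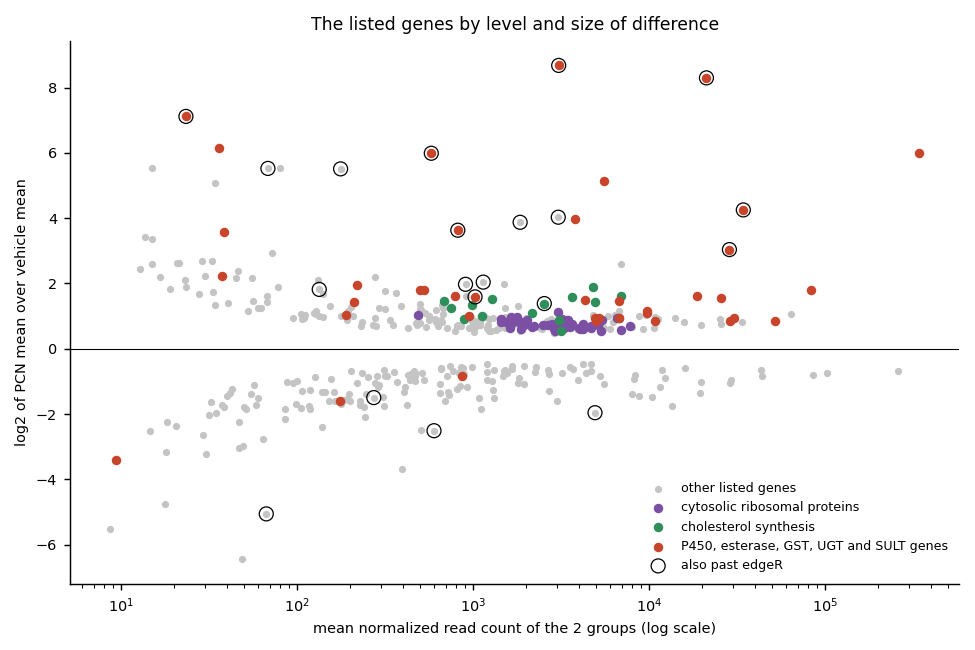
Log2 of the ratio of group means (PCN over vehicle) of the 442 listed genes against the mean normalized count of the 2 groups (log axis), 1 point per gene. The largest ratios are those of detoxification genes (red) such as Cyp2c55 (410-fold) and Gstm3 (315-fold), while cytosolic ribosomal protein genes (purple) lie close together at 1.46- to 2.17-fold. Circles mark the 20 genes that also passed edgeR.

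Cholesterol synthesis enzymes were higher in 15 of 25 cases and lower in 0. The pathway turns acetyl-CoA into cholesterol through mevalonate and squalene, and its genes are known targets of SREBP2, a factor released when sterols are low. The median of the 15 was 2.52-fold, against 1.91-fold for all 276 higher genes. Cyp51, lanosterol demethylase, had 1806, 970 and 3397 normalized counts with vehicle and 8696, 4462 and 9746 with PCN (3.71-fold). Msmo1 was 3.07-fold higher, Fdft1, squalene synthase, 2.97-fold, Dhcr7, which makes the last step to cholesterol, 2.85-fold and Mvk 2.75-fold. Vehicle replicate 55 was the highest control in most of these genes and replicate 23 the lowest, yet every PCN library of Cyp51 exceeded all controls. Tm7sf2, a sterol reductase, was the evenest, at 1360, 1377 and 1491 against 3239, 4249 and 3558 (2.61-fold). A DESeq2 refit called 8 of the 15 without PCN replicate 5 and 9 without PCN replicate 27.

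Of 28 genes of sterol sensing and LDL uptake, 3 were higher: Rdh11 (4.12-fold), Tmem97 (2.50-fold) and the sterol carrier Stard4 (1.67-fold). Sqle, squalene epoxidase, was not listed although its means lay far apart, with 614, 367 and 2405 normalized counts with vehicle and 4468, 2325 and 5896 with PCN. Vehicle replicate 55 overlapped the PCN range there. The letters TCACNCCAC of the sterol response element, on either strand, were found in 0 of 15 listed genes of these 2 lists with a RefSeq promoter and in 1.44% of all promoter genes. At so low a share most sets of 15 would hold 0, so this count cannot speak about such sites. The letters were in 1 of 26 unlisted genes of these lists, in 7 of the 212 higher genes (3.30%) and in 0 of the 109 lower ones.

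Fatty acid and triglyceride synthesis had 7 of 36 genes higher and 0 lower. Elovl6, which lengthens palmitate, had 337, 350 and 417 with vehicle and 1093, 1465 and 1785 with PCN (3.93-fold). The uninjected high-fat-diet livers had 1284, 1006 and 1689, so vehicle livers were the low group for this gene. Fasn, fatty acid synthase, had 4563, 3451 and 4549 against 6087, 12744 and 9252 (2.24-fold), and uninjected livers again lay nearer to PCN, at 9062, 6278 and 12736. Fads1 was 1.99-fold and Gpam, the first step of glycerolipid synthesis, 1.56-fold higher. For Fads1 too the vehicle livers were called lower than uninjected ones (authors' DESeq2 log2 -0.69), and PCN against uninjected livers was not called. Mogat2, a monoacylglycerol acyltransferase of the gut, rested on 6 vehicle reads and 251 PCN reads, a pooled ratio of 37.6 with an interval from 17.0 to 103. Scd1 was not listed: it had 2883, 12805 and 24104 with vehicle and 5506, 61582 and 14970 with PCN, so its groups overlapped. Srebf1 was at 3940 ± 439 and 2920 ± 1484 and was not listed. The refit with DESeq2 called 4 of the 7 without PCN replicate 5 or 27 and without vehicle replicate 15 or 23.

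**Figure D3:**
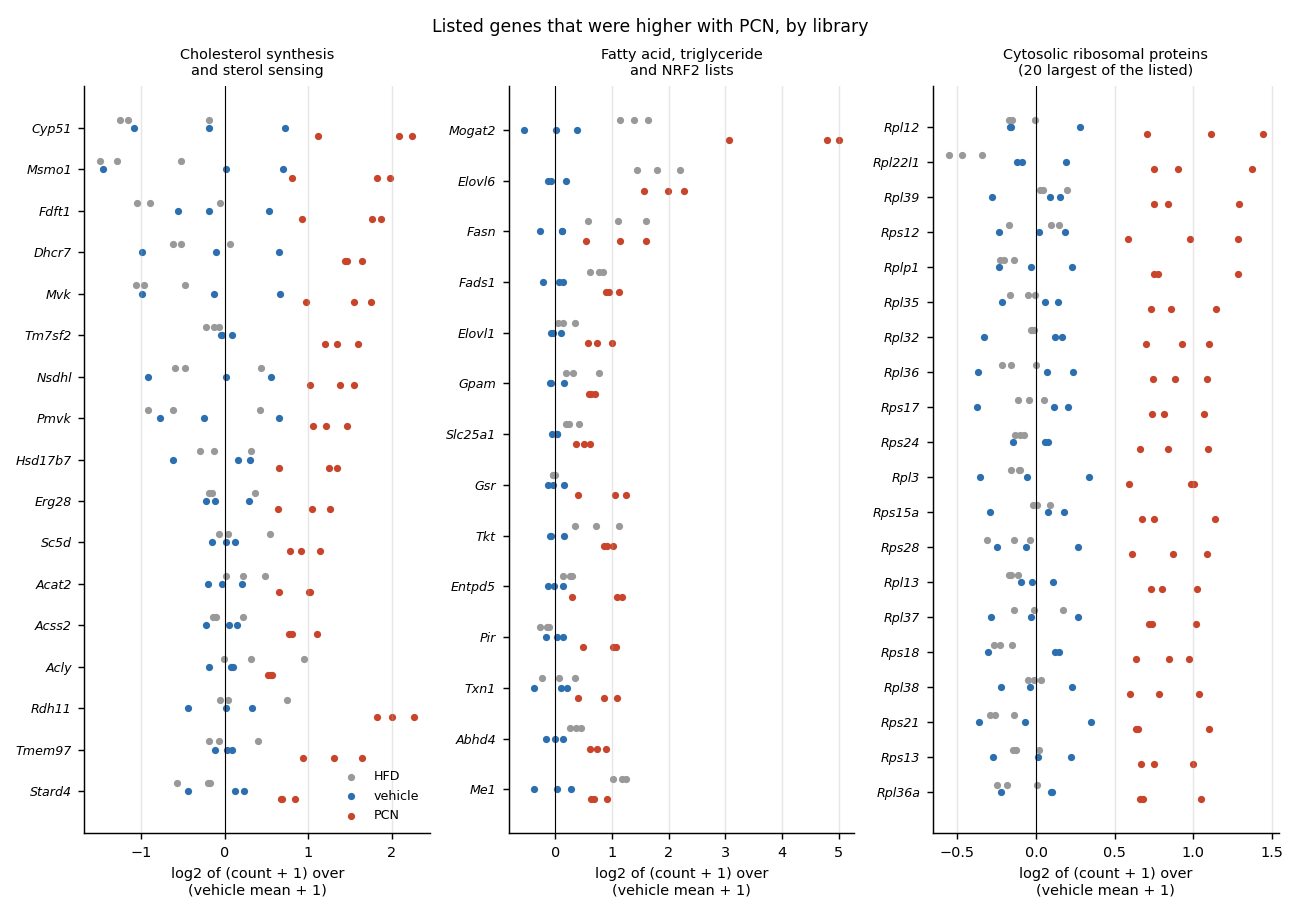
Log2 of the normalized count plus 1 of each library over the vehicle mean plus 1, for genes that were higher with PCN (grey, uninjected high-fat diet; blue, vehicle; red, PCN; n = 3 each). Blue points of the cholesterol genes in the left panel are spread widely, with red points to their right. For Elovl6 and Fasn the grey points lie among the red ones.

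Ribosomal protein genes were the largest single group of listed genes. This list was drawn up after the values had been seen. Of 84 measured cytosolic ribosomal protein genes, 48 were higher and 0 lower, with a median of 1.68-fold and a range of 1.46- to 2.17-fold. Rpl12 had 2335, 1723 and 1713 against 5228, 3140 and 4152 (2.17-fold), and Rps12 1369, 1218 and 1020 against 2930, 1807 and 2376 (1.97-fold). Another 27 members were not listed but had PCN counts from other tables, and their ratios ran from 1.29 to 1.80. The same PCN libraries put them into those tables, so these ratios are no support, and 9 members had no PCN counts. Of 77 mitochondrial ribosomal protein genes only Mrpl15 was listed (1.42-fold), where 1.71% of all tested genes were listed. None of the 48 passed edgeR. All had an unadjusted edgeR p below 0.05, which the choice of listed genes made likely beforehand. In a DESeq2 refit 9 were called without PCN replicate 5, 12 without vehicle replicate 55, 20 without vehicle replicate 23 and 31 without PCN replicate 27.

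Lysosomal genes, also listed after the fact, had 9 of 51 members higher and 1 lower. Ctsl, a cathepsin, had 10812, 9112 and 8831 against 24239, 11828 and 19767 (1.94-fold), Creg1 was 2.04-fold higher and Atp6v0d2, a subunit of the proton pump, 2.50-fold. Arsa was lower (1.66-fold), and a DESeq2 refit called it only without vehicle replicate 15 or PCN replicate 11. Refitted with DESeq2, the list kept calls for 0 of the 9 without PCN replicate 5 or vehicle replicate 55, 1 without PCN replicate 27 and 4 without vehicle replicate 15 or 23.

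Among the lower genes, the lipid droplet list had 4 of 35 members and 0 higher. Cfd, the complement factor adipsin, had 63.1, 119 and 208 normalized counts with vehicle and 3.85, 6.81 and 1.05 with PCN (33.3-fold lower, 53.0-fold without PCN replicate 11). It rested on 386 against 12 reads, a pooled ratio of 35.8 with an interval from 20.3 to 69.9. Cidea, a lipid droplet fusion protein that marks the fatty liver, had 7.65, 50.2 and 45.4 against 1.10, 1.70 and 1.05. Its 102 vehicle reads and 4 PCN reads gave a pooled ratio of 28.4 with an interval from 10.8 to 106. Uninjected high-fat-diet livers had 210, 71.0 and 156 for Cidea and chow livers a mean of 4.97. Fabp2 was 1.73-fold and Plin4, a droplet coat protein, 1.56-fold lower. Cd36, the fatty acid carrier, was not listed, at 4149 ± 2030 and 4159 ± 754. A DESeq2 refit called 2 of the 4 without vehicle replicate 55 or any 1 PCN library.

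Acute phase and metallothionein genes were lower in 7 of 43 cases and higher in 0. The metallothioneins, which bind zinc and respond to stress hormones, led: Mt2 had 9751, 6049 and 7784 with vehicle and 2409, 1717 and 1947 with PCN (3.88-fold). Mt1 had 15895, 9120 and 13466 against 5957, 3900 and 4220 (2.73-fold). Uninjected livers had 3158, 4569 and 1779 for Mt2, so the vehicle livers were the high group. Saa4, a serum amyloid, was 2.77-fold lower, Serpina3n 2.56-fold, the interleukin receptor Il1r1 2.46-fold and the zinc carrier Slc39a14 1.90-fold. Il1r1 was called higher with vehicle than in uninjected high-fat-diet livers (authors' DESeq2 log2 0.88) and was not called between PCN and uninjected livers. Saa4 in uninjected livers was 6685, 10292 and 3882, near the PCN values of 5787, 7655 and 3132 and below the vehicle values of 14155, 14463 and 17286. Without vehicle replicate 55, which had the highest Serpina3n (46648), a DESeq2 refit called 3 of the 7. Of 41 complement and coagulation genes 1 was higher, C2 (1.85-fold), and 2 were lower, among them C9 (2.11-fold). C2 was not called without PCN replicate 5, and 1 of the 2 lower genes was called without vehicle replicate 55 or PCN replicate 11 or 27.

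Genes of glucose, insulin and IGF control were lower in 5 of 45 cases and higher in 0. Gadd45g, an early stress gene, had 809, 428 and 962 normalized counts with vehicle and 20.9, 83.4 and 65.3 with PCN (12.96-fold). Igfbp1, an insulin-repressed binding protein, had 2763, 1662 and 1424 against 750, 479 and 818 (2.86-fold). Ppp1r3b, which drives glycogen synthesis, was 1.73-fold lower, Cebpb 1.67-fold and Pcx, pyruvate carboxylase, 1.51-fold. Of the gluconeogenic genes, Pcx was thus listed, while G6pc and Pck1 were not: G6pc had 5831, 4528 and 397 with vehicle and 387, 656 and 140 with PCN, and Pck1 68935, 48543 and 26828 against 20677, 29495 and 9265. For G6pc, vehicle replicate 55 lay within the PCN range. Without vehicle replicate 15 or PCN replicate 27 a DESeq2 refit called 2 of the 5, and 3 without PCN replicate 5 or vehicle replicate 23 or 55.

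A list of early response and glucocorticoid-type stress genes, made after the values were seen, had 12 of 30 members lower and 0 higher. Besides Gadd45g and Cebpb, Cdkn1a, a cell cycle inhibitor, had 324, 675 and 192 against 96.8, 128 and 55.9 (4.25-fold, 2.76-fold without vehicle replicate 23). Dusp1, a phosphatase of stress kinases, was 2.76-fold lower, Csrnp1 3.04-fold, Zfp36, which breaks down cytokine mRNA, 2.64-fold and Nfil3, a clock repressor, 2.24-fold. Uninjected livers had 342, 449 and 505 for Dusp1, within the vehicle range of 336 to 540, and PCN livers 142, 244 and 105. The refit with DESeq2 called 6 of the 12 without PCN replicate 5 and 7 without vehicle replicate 15 or 55.

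**Figure D4:**
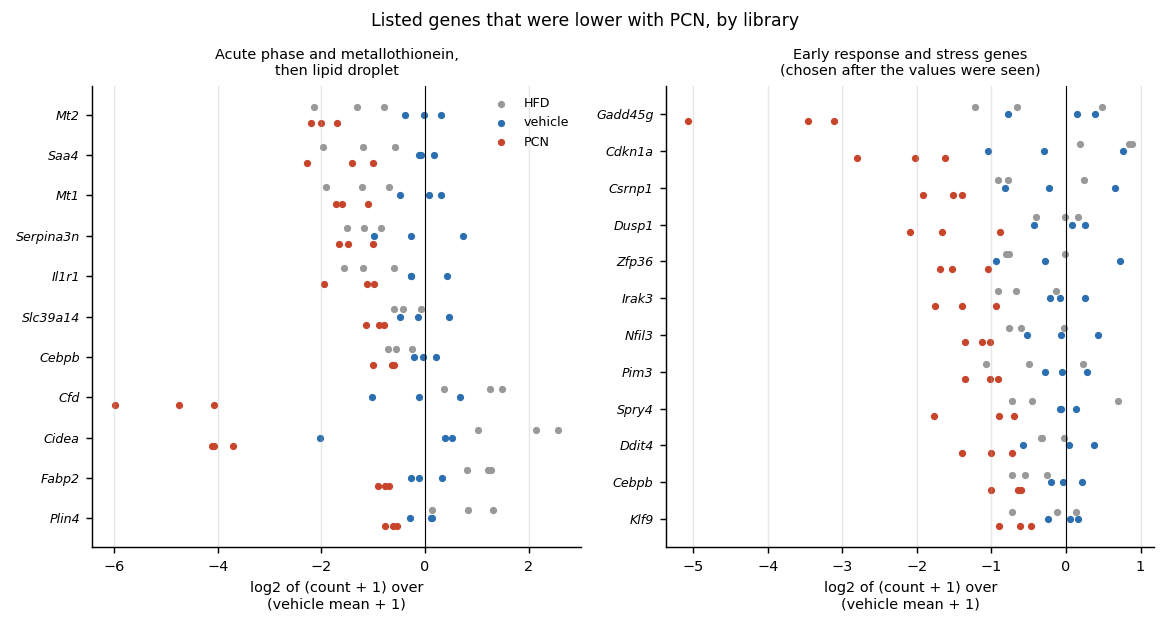
Log2 of the normalized count plus 1 of each library over the vehicle mean plus 1, for genes that were lower with PCN (grey, uninjected high-fat diet; blue, vehicle; red, PCN; n = 3 each). Grey points of Mt1, Mt2 and Saa4 lie left of the blue ones, while those of Cidea and Cfd lie right of most of them.

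In bile acid metabolism 1 gene of 26 was higher and 2 lower. Among the 10521 genes with a mean vehicle count of at least 50, 236 were higher and 158 lower. Counts of 1 or 2 genes in a list of this size are too few to set apart from that share. The same holds for the lipoprotein, complement and coagulation, and amino acid lists, so their genes are described singly. Cyp8b1, which makes cholic acid, had 4362, 4480 and 3878 normalized counts with vehicle and 10928, 7177 and 7750 with PCN (2.03-fold). It was called lower with vehicle than in uninjected high-fat-diet livers (authors' DESeq2 log2 -0.85) and was not called between PCN and uninjected livers. Nr0b2, the repressor SHP, had 792, 588 and 364 against 363, 220 and 121 (2.48-fold lower), where the highest PCN library and the lowest vehicle library almost met. Scp2, a peroxisomal thiolase and sterol carrier, was 1.55-fold lower. Cyp7a1, the rate-limiting enzyme, was not listed, and its vehicle values alone were 10294, 5837 and 2249. Of the 2 lower bile acid genes a DESeq2 refit called 1 without vehicle replicate 15 or 23 or PCN replicate 11 or 27. In lipoprotein metabolism Tm6sf2, needed for VLDL lipidation, was 2.40-fold and Pctp 1.80-fold higher, and Apon (1.68-fold) and Apoe (1.59-fold) were lower, of 28. In the refit 1 of the 2 higher genes was called in each case but that without vehicle replicate 23, and of the 2 lower genes 1 was called when any 1 vehicle library was left out and 0 without PCN replicate 27. Apoe was among the most abundant listed genes, at 311390, 345207 and 309286 against 218268, 215324 and 173727.

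Growth hormone dependent and sex-biased genes overlap with the P450 list: 4 of 45 were higher (Cyp3a16, Cyp3a44, Sult3a1 and Cyp2a4), and Egfr was 2.64-fold lower, or 1.73-fold without vehicle replicate 55. Egfr was not called in a refit without that library, PCN replicate 5 or PCN replicate 27. In the amino acid list Psat1, of serine synthesis, had 10.5, 20.1 and 19.6 against 135, 52.8 and 197 (7.67-fold), and Cbs (1.93-fold) and Mat1a (1.68-fold), both of methionine metabolism, were lower, of 56. Of these 2 lower genes a DESeq2 refit called 0 without vehicle replicate 15, and 1 without vehicle replicate 55, PCN replicate 5 or PCN replicate 27. Of 52 PPAR alpha target genes of fatty acid oxidation only Cyp4a14 was listed, 2.02-fold lower, and the refit called it only without vehicle replicate 55 or PCN replicate 11. No gene of the 28 of the ER stress list was listed. Of all tested genes 1.71% were listed, so 0 of 28 or 1 of 52 cannot be set apart from that share.

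Other listed genes with large ratios lay outside these lists. Nebl, an actin-binding protein of muscle, had 9.56, 6.02 and 7.23 normalized counts with vehicle and 435, 121 and 484 with PCN (45.6-fold). Gm7208, a transcribed pseudogene beside Ces2a on chromosome 8, had 9 vehicle reads and 504 PCN reads, a pooled ratio of 50.3 with an interval from 26.3 to 111. Its ratio of means was 46.0, and 132 without vehicle replicate 15. Scara5, a ferritin receptor, had 1097, 797 and 1175 against 195, 230 and 114 (5.69-fold lower). The pseudogene Serpina4-ps1 had 295 vehicle reads and 4 PCN reads, a pooled ratio of 82.1 with an interval from 31.7 to 303. It was 86.6-fold lower by its means, or 52.9-fold without vehicle replicate 15. B3galt1 was 3.60-fold lower.

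Some lower genes were transcripts without a coding frame. Long noncoding RNAs and other unclassified transcripts made up 24 of the 166 lower genes (14.5%), 6 of the 276 higher ones (2.17%) and 25.2% of the 26015 genes of the complete table. With a mean vehicle count of at least 50, they were 20 of 158 lower genes (12.7%), 1 of 236 higher ones (0.424%) and 3.47% of 10521 genes. That filter acts on the group in which lower genes are high and higher genes low. It drops higher transcripts such as Gm10804 (16.4 with vehicle, 73.8 with PCN), so these shares cannot be compared between the directions. Gm38070 (chr1:40238020-40244499) had 622, 395 and 1553 with vehicle and 78.6, 179 and 204 with PCN, 5.56-fold lower, or 3.30-fold without vehicle replicate 55. Gm38357 was 5.27-fold lower, or 2.69-fold without vehicle replicate 55, and Gm28323 3.60-fold, or 2.33-fold without it. Gm45220 to Gm45223 are 4 neighbouring transcripts within 71.3 kb of chromosome 7, all of them lower. Gm45220 was 4.41-fold, Gm45221 3.36-fold, Gm45222 2.62-fold and Gm45223 2.62-fold lower. Without PCN replicate 27 Gm45221 was 5.97-fold and Gm45223 3.96-fold lower. The strand used in counting is not given in the sources used here, so reads of overlapping genes cannot be told apart from those of such transcripts.

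Some listed genes were neighbours. With a gap of at most 100 kb, 87 of the 442 fell into 38 groups of neighbours, and in 32 groups all members had 1 direction. The same count over other genes was not made, so these numbers only describe where the listed genes lie. With 276 of the 442 higher and most groups pairs, many would share a direction in any case. The groups with 3 or more members were 6: the Gstm cluster, the Cyp3a cluster (Cyp3a44, Cyp3a11, Cyp3a25 and Cyp3a59 within 339.3 kb), the 4 transcripts of chromosome 7, the Ugt1a genes, the Cyp2a5 and Cyp2g1 group with the pseudogene Cyp2a21-ps, and Cfd with Cnn2 and Polr2e, which did not share a direction.

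Exonic length is given for both directions. Protein-coding genes that were higher had a median of 2723 exonic bases and those that were lower 5331, against 4684 for the 10062 protein-coding genes with a mean vehicle count of at least 50. Without ribosomal protein genes the higher ones had 3104, and lower genes with under 2-fold difference 6886.5. Lower genes of at least 2-fold had 3513, below that background, and higher genes of at least 2-fold 2605.5. Listed ribosomal protein genes had a median of 1980.5. The part of length in the results was not tested.

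**Figure D5:**
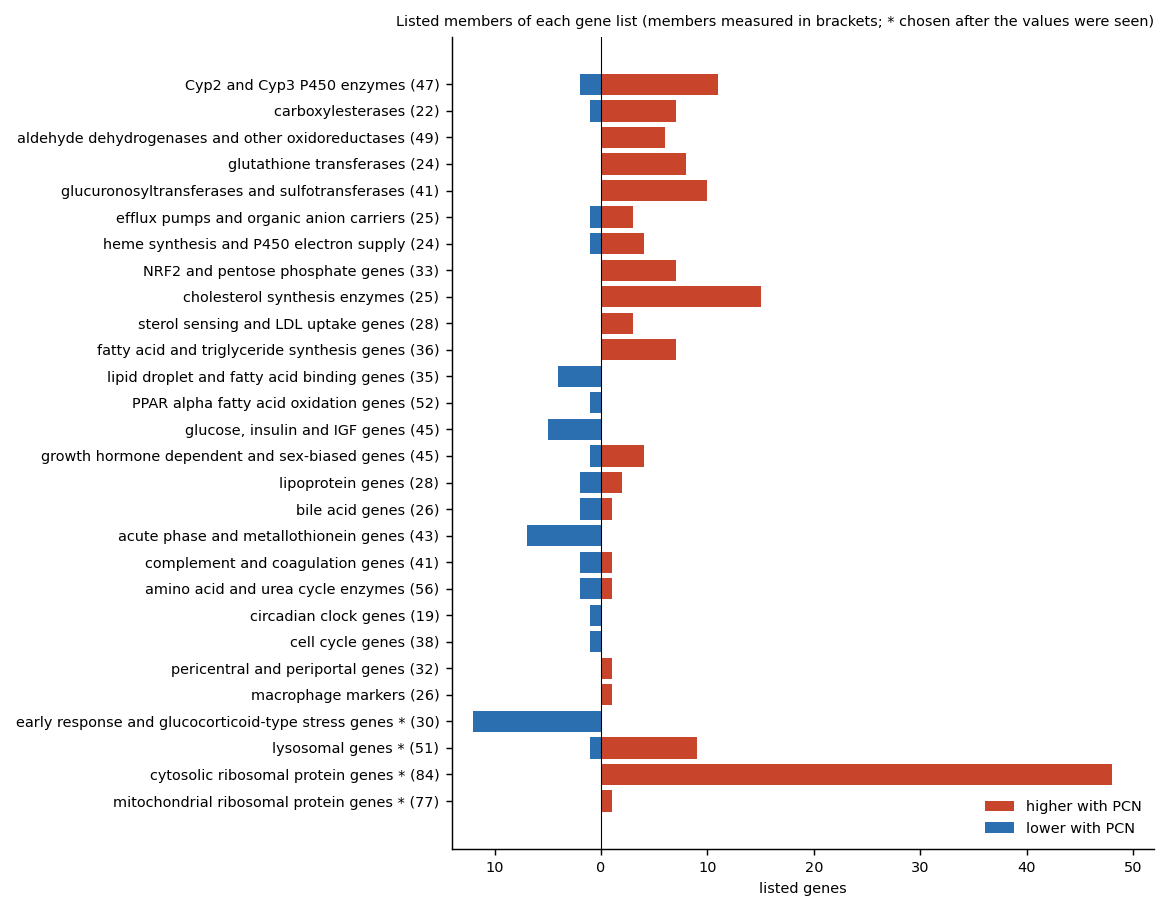
Number of listed genes (horizontal axis) in each gene list that were higher (red, to the right) or lower (blue, to the left) with PCN, with the number of measured members in brackets. Cytosolic ribosomal protein genes (48) and cholesterol synthesis enzymes (15) have the longest red bars, and early response genes (12) the longest blue bar.

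In each direction most differences were under 4-fold: 39 of the 276 higher and 22 of the 166 lower genes were at least 4-fold. Of the 276 higher genes 117 were at least 2-fold and 20 at least 10-fold higher, with a median of 1.91-fold. Of the 166 lower genes 96 were at least 2-fold and 6 at least 10-fold lower, with a median of 2.19-fold. Son, a splicing cofactor, lay nearest the threshold, at 0.04954 for its adjusted p by the authors' deposited table, with 5423, 5030 and 5844 against 3897, 3980 and 3900. PCN and vehicle libraries did not overlap in 273 higher and 164 lower genes. Among all 2440 genes with counts in the 6 libraries, most of which another table lists, 47.1% did not overlap. The 5 listed genes whose groups overlapped were Cyp2c29, Ephx1, Mthfd2, Derl3 and Serpina3e-ps. With 3 against 3 libraries an exact permutation test of 1 gene cannot go below 0.10.

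Libraries of a group were not equal. Vehicle totals were 19773547 to 22039805 reads, and PCN totals, estimated from size factors, about 37300000, 12100000 and 19500000. PCN replicate 5, the deepest by that estimate, was the highest of its group in 170 of the 276 higher genes (61.6%), and replicate 11, the shallowest, the lowest in 184 (66.7%). Cyp2c55, Gstm3 and Gstm2 show this order, with replicate 11 at 2095, 14702 and 1982 normalized counts. Vehicle replicate 23 was the lowest control in 86 of the 166 lower genes, and replicate 55 the lowest in 155 of the 276 higher ones.

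A second test was stricter. edgeR, with the spread of ordinary genes taken from the complete table of vehicle against uninjected livers and Benjamini-Hochberg adjustment over 25879 genes, called 20 of the 442 (0.0773% of those tested), 16 higher and 4 lower. All 442 had an unadjusted edgeR p below 0.05, and a DESeq2 refit called 439. These genes had been chosen by DESeq2 on the same libraries, so both counts were largely fixed beforehand and are no support. The 16 were Cyp2c55, Cyp3a44, Cyp3a41b, Ces2a, Gm7208, Gstm1, Gstm3, Gstm6, Gstm2-ps1, Gm8834, Ugt1a9, Elovl6, Rdh11, Tm7sf2, Nebl and Smoc2. The 4 were Mt2, Scara5, Cfd and Atp10d. Cyp2c55 had an edgeR adjusted p of 0.0123, Elovl6 of 0.0236 and Mt2 of 0.0338. Cyp3a11 had an edgeR adjusted p of 0.0660. Without vehicle replicate 15 or 55 edgeR called 0 of the 442, all 442 with an unadjusted p below 0.05, where the DESeq2 refit called 231 and 201. Without vehicle replicate 23 edgeR called 11, without PCN replicate 5 it called 7 and without PCN replicate 27 it called 1. The DESeq2 refit called 266, 151 and 210 in these cases. Across the 442, the ratio of means of 35 genes moved by more than 1.5 times when 1 library was left out.

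The diet table, high-fat diet against chow, shares no library with PCN against vehicle and was not used to choose the genes. It called 1226 of 25255 genes (4.85%), 2.81% higher and 2.05% lower on the high-fat diet. Of the 276 genes higher with PCN, 66 (23.9%) were called there, 25 higher and 41 lower. Of the 166 lower with PCN, 32 (19.3%) were called, 21 higher and 11 lower. The median of the mean count was 1237 for the higher genes and 464 for the lower ones, and the part of read depth in these shares was not tested.

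The split differed by gene group. Of the 48 ribosomal protein genes 21 were lower on the high-fat diet and 0 higher, with deposited log2 changes from -0.68 to -0.34 in the authors' deposited table. These are DESeq2 estimates and are not the same measure as the ratios of means given for PCN. Of the 11 higher P450 genes 5 were lower on the diet (Cyp3a11, Cyp3a44, Cyp3a25, Cyp2c29 and Cyp2c55) and Cyp2a4 was higher. Ces2a was lower on the diet, and Gstm3, Gstm2, Abcb1a, Fasn and Dhcr7 were higher. Of the 15 cholesterol enzymes 2 were higher on the diet and 1 lower. Among the genes lower with PCN, Cidea, Plin4, Serpina3n and Alas1 were higher on the diet, and Cyp4a14, Cbs and Nr0b2 lower. None of the 12 early response genes was called there.

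Markers of other cells were looked at in the same libraries. The vehicle livers expressed hepatocyte genes such as Alb (1099450 ± 296237) and Ttr (70107 ± 15503), with 703715 ± 242552 and 53807 ± 8799 in PCN livers. None of 14 hepatocyte markers was listed, and 7 of them had PCN counts. These 7 summed to 1346140 to 2113610 with vehicle and 953354 to 1464320 with PCN, so the sums overlapped. Hnf4a, Apob and Serpina1c were lower in every PCN library than in any vehicle library. Alb, Ttr, Cps1 and Serpina1a overlapped, and the Serpina1a mean was higher with PCN (17394.9 against 16636.5). Of 26 macrophage markers 1 was listed: Ccl9, a chemokine, had 675, 486 and 190 against 1603, 1165 and 1376 (3.07-fold). Ccl9 was not called by a DESeq2 refit without PCN replicate 5. The 5 macrophage markers with PCN counts, Ccl9 included, summed to 428 to 1016 with vehicle and 1398 to 1886 with PCN. Without Ccl9 the other 4 (Cd68, Trem2, Gpnmb and Cd14) summed to 341, 461 and 238 with vehicle and 284, 233 and 246 with PCN, so these groups overlapped. For stellate cells 0 of 32 markers were listed, and the 8 with PCN counts summed to 1277 to 4659 and 2505 to 3500. For endothelium 0 of 18 were listed (2 with PCN counts, 752 to 1354 and 975 to 1481), for bile duct cells 0 of 11 (4 with counts, 467 to 571 and 403 to 410) and for lymphocytes and granulocytes 0 of 17. With 1.71% of all tested genes listed, counts of 0 in marker lists this short cannot speak about cell composition. Only 3 of the 11 bile duct and 1 of the 17 lymphocyte and granulocyte markers had a mean vehicle count of at least 50. The bile duct sums did not overlap and were lower with PCN, but each of the 4 genes (Pkhd1, Sox9, Krt19 and Krt23) overlapped by itself. Pkhd1 gave most of the sums, with 386, 343 and 314 against 296, 330 and 328. Sox9 was at 240 in vehicle replicate 55, and the Krt19 mean was higher with PCN (26.6 against 19.3). These sums thus show no change of any single marker. Of 18 blood, adipose, muscle and pancreas transcripts none was listed. Alas2, the heme enzyme of red cells and the only one of them with PCN counts, had 1547, 1523 and 1532 with vehicle and 1256, 1098 and 731 with PCN, lower in each PCN library. Its part in other results was not tested. In the same list 5 transcripts, Retn, Acta1, Tnnt3, Pnlip and Krt5, were at 0 in all vehicle livers. The others were detected there, 7 of the 18 with a mean vehicle count of at least 50. The whole list summed to 27640 to 48582 in the vehicle livers, so RNA of such tissues or cells may be present. In whole tissue, fewer cells of a type and less RNA per cell cannot be told apart.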

How the data were processed

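Total RNA of 12 livers (4 groups of 3) was sequenced on an Illumina instrument, per the labels' protocols. HISAT2, HTSeq and DESeq2 are named in the submitters' processing notes, with mouse build GRCm38 (mm10). Tool versions and the strand setting were not given in the sources used here. As deposited, the authors' files are 6 tables of raw read counts per gene with DESeq2 log2 fold changes and p-values. Of 15768 values that several tables repeat, 0 differed. Size factors were recovered from the counts and the deposited means, and ratios compare group means of counts divided by them. PCN totals were estimated from size factors.

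edgeR 4.0.16 (quasi-likelihood, R 4.3.3) and DESeq2 1.42.0 were run on the listed genes, with the spread taken from 13687 genes of the complete vehicle table. edgeR was also run on simulated counts whose spread was set by mean count alone. That run cannot show how the test behaves on these data. Genes with at most 20 reads in a group have a pooled ratio with an exact 95% counting interval. Genes were named as the 10 largest ratios per direction (mean count of at least 50, no overlap), up to 4 per list with at least 3 listed members, a set of pathway genes, and the gene nearest the threshold. Other list members in the text were chosen after their values were seen. Some genes under this rule are not reported here. Members and all lists (32, and 4 added) were chosen with earlier results of these data known. Gene models are GENCODE M21, in which 409 of 442 listed genes have identical coordinates. Promoters are from RefSeq (GRCm38.p6), matched by symbol. Alternatives were TMM scaling, other count filters and thresholds, another source of the spread, all groups in 1 fit, and leaving out each library.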

Additional observations from a re-analysis of the deposited data

How the results depend on the processing

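With the deposited adjusted p below 0.01, 230 of the 442 genes were called between PCN and vehicle and 55 were called in the diet table. The DESeq2 refit, chosen after seeing the data, called 439 with all 6 libraries and 151 to 314 when 1 library was left out (231, 266 and 201 without vehicle replicates 15, 23 and 55, and 210 without PCN replicate 27). edgeR called 0 to 28 when 1 library was left out, 6 with the spread of genes that have PCN and vehicle counts, 122 of 373 with all 4 groups in 1 fit, and DESeq2 in its place called 439. The cause of these differences was not tested. Under TMM edgeR called 22, and with a mean count of at least 50 it called 19. TMM shifted PCN against vehicle by -0.08 on the log2 scale. Of 586 alternative ratios of 84 named genes, 581 stayed within 1 SD, 5 moved further and 0 changed direction. That SD is the spread between libraries of both groups carried over to the ratio. Leaving out 1 of 3 libraries can hardly move a ratio past it, so these counts do not test stability. By size, 14 of the 84 genes had a ratio that moved by more than 1.5 times. Cyp3a16 and Cyp3a41b have no ratio without vehicle replicate 23. No paired analysis was possible because the groups share no replicate numbers. Depth limits the 22 listed genes with at most 20 reads in a group.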
